A study of Mus musculus with 3 samples.

Results

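The mouse genome holds many genes for C2H2 zinc finger proteins in tandem clusters, and the genes named Zfp plus a number that lie in such clusters were described here by their 5-methylcytosine (5mC) peaks. Members were the protein-coding genes of chromosomes 1 to 19 in the RefSeq annotation whose symbol is Zfp followed by digits and whose gene body lies within 100 kb of another such gene. The rule gave 208 genes, of 360 genes with such a symbol and of 20665 protein-coding autosomal genes, and no peak was used to choose them. They form 50 clusters, of which 21 are pairs, 15 hold 5 or more genes and the largest holds 15. At the edge of the rule, Zfp605 and Zfp932 are members with a gap of 97.8 kb, and Zfp715 and Zfp936 are not, with a gap of 104.4 kb. The members' median length was 15.8 kb, and 27 of them overlap another protein-coding gene.

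The data are methylated DNA immunoprecipitation sequencing (MeDIP-seq) of DNA from isolated cardiomyocytes of male C57Bl6/J mice aged 8 weeks. The TAC library came from hearts under pressure overload for 1 week, and the Sham library from animals given the sham procedure. The Input library, made without antibody, has no peak list of its own and was not analysed further here. Each group has 1 library, so no test of TAC against Sham was possible, and all intervals below are exact Clopper-Pearson 95% intervals that cover counting error only. Nothing in the labels says how many animals went into each library. A peak is a region the authors called as enriched for 5mC fragments over input, not a methylation level, and in such bulk DNA a change in all cells and a change in the mix of cells cannot be told apart. Peak lists hold no expression, so the labelled cell type could not be checked against its markers.

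The TAC library had 14658177 tags and 162107 peaks, and the Sham library had 12585289 tags and 135886 peaks. Peaks held 34.7% of the TAC tags and 29.9% of the Sham tags, and the tag threshold for a peak was 8.19 per 10000000 tags in TAC and 8.74 in Sham. The TAC library was therefore the deeper one and the one called at the lower scaled threshold, and the part of this in any difference in peak number was not tested. How reads that match several near-identical zinc finger genes were placed is not stated in the labels or headers, so counts in close paralogs are uncertain.

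Many proteins of this family carry a KRAB domain, which recruits Trim28 and with it the histone methyltransferase Setdb1 and HP1 proteins, so that the bound DNA is silenced. Their best known targets are retrotransposons, and a few members bind imprinted regions or single promoters. The genes arose by repeated tandem duplication, and in human cells the 3' exons that encode the zinc fingers are known to carry H3K9me3, a silencing mark.

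Promoter sequences show what the antibody could bind at these genes, since 5mC sits mainly at CpG dinucleotides. RefSeq promoters of 300 bases (250 before to 50 after the gene start, assembly GRCm38.p6, the assembly named mm10) matched 180 of the 208 members, with 200 promoters in all. The motif searched was CG, which reads the same on both strands, and it occurred at a median of 11 per promoter in members and 14 in the 19885 promoters of all other genes. The members' promoters leaned to intermediate CpG content: 39.0% held 10 to 19 CpG and 20.5% held 20 or more, against 20.6% and 37.3% of the other promoters. A peak covered at least 1 base of 4 member promoters in TAC (2.0%) and 4 in Sham (2.0%), against 3.52% of the other promoters in TAC and 3.26% in Sham. The covered promoters belong to 5 genes, since 3 of the Sham ones are overlapping promoters of Zfp54. Below are 4 covered promoters and, for contrast, those of Zfp777 and Zfp872, which no peak reached although these genes held wide peaks in their bodies. CpG sites are in capitals.
Zfp180 (chr7:24081647-24081946, plus strand): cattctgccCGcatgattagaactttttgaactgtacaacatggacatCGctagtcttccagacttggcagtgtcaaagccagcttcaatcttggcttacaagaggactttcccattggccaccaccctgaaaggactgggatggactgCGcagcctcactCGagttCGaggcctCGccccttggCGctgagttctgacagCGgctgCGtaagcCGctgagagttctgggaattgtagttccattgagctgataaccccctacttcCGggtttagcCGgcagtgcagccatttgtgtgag
Zfp444 (chr7:6172263-6172562, plus strand): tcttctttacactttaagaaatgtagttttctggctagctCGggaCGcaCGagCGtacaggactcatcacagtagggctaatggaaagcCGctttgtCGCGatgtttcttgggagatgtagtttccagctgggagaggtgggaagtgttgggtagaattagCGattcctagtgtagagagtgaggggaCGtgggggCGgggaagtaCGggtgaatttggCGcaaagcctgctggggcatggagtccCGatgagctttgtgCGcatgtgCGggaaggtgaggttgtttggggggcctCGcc
Zfp677 (chr17:21383498-21383797, plus strand): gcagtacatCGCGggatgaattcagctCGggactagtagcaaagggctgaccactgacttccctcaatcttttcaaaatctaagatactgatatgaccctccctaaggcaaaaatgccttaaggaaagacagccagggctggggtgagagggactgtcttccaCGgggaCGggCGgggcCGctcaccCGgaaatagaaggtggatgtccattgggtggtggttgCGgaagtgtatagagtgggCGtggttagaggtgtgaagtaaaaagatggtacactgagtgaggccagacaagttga
Zfp54 (chr17:21422977-21423276, plus strand): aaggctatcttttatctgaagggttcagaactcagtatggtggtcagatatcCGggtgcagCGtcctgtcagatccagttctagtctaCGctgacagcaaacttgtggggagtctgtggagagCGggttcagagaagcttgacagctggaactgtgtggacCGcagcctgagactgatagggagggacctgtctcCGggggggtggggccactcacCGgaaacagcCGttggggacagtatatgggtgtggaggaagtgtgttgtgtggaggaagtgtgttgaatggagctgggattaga
Zfp777 (chr6:48047745-48048044, minus strand): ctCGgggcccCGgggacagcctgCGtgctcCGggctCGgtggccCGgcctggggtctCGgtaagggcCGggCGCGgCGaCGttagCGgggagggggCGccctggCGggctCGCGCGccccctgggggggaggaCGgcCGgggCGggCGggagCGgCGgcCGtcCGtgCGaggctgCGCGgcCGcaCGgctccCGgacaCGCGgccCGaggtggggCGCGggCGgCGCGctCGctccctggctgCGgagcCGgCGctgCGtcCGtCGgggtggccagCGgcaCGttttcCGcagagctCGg
Zfp872 (chr9:22187916-22188215, plus strand): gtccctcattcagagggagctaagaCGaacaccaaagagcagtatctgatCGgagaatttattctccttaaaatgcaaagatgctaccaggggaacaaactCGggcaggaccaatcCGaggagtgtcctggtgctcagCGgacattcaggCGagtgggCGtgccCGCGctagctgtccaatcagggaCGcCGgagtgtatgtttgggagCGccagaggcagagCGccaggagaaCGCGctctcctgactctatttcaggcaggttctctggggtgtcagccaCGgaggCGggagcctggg
The Zfp180 promoter, with 12 CpG, was the only one covered in both libraries: the TAC peak of 820 bp took in all 300 bases and the Sham peak of 627 bp took in 122. The Zfp444 promoter, with 16 CpG, was covered over 201 bases by a TAC peak of 640 bp, and the nearest Sham peak lay 1308 bp away. The Zfp677 promoter on chromosome 17, with 10 CpG, was covered over 239 bases by a TAC peak of 501 bp, and the nearest Sham peak lay 16902 bp away. The remaining gene, Zfp605, had a TAC peak over 148 bases of a promoter with 7 CpG. The Zfp54 promoter, with 8 CpG, was covered in full by a Sham peak of 501 bp, and the nearest TAC peak lay 21513 bp away. None of the 41 member promoters with 20 or more CpG was covered in either library, and of the other genes' promoters in that class 1.85% were covered in TAC and 1.42% in Sham. The Zfp777 promoter, with 51 CpG, was 3073 bp from the nearest TAC peak and 2259 bp from the nearest Sham peak. For Zfp872, with 17 CpG, these distances were 1197 bp in TAC and 847 bp in Sham.

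The clustered genes were poor in 5mC peaks compared with other genes. Their bodies held 206 TAC and 176 Sham peaks, which is 44.4 TAC and 37.97 Sham peaks per Mb of gene body, against 68.3 and 64.1 in all other autosomal genes. The 152 Zfp genes outside clusters held 476 TAC and 477 Sham peaks, or 71.4 and 71.6 per Mb. Among other tandem families, the 1104 olfactory receptor genes (Olfr) held 33.5 TAC and 30.7 Sham peaks per Mb, and the 122 vomeronasal receptor genes (Vmn2r) held 24.1 and 12.5. The lower density of the clustered genes stood between these receptor families and the scattered Zfp genes.

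The lower density held in 3 of 4 classes of gene length. Members of 10 to 20 kb, 92 genes, held 44.3 peaks per Mb in TAC and 44.3 in Sham, against 72.7 and 75.7 in other genes of that length. In the 74 members of 20 to 40 kb the densities were 49.6 in TAC and 40.04 in Sham, against 68.9 and 69.5. The 12 members over 40 kb held 28.0 in TAC and 18.1 in Sham, against 67.9 and 62.3. The 30 members under 10 kb went the other way, with 88.4 in TAC and 88.4 in Sham, against 66.3 and 72.0. The plot of density by length shows that the shortest members are the exception.

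**Figure D1:**
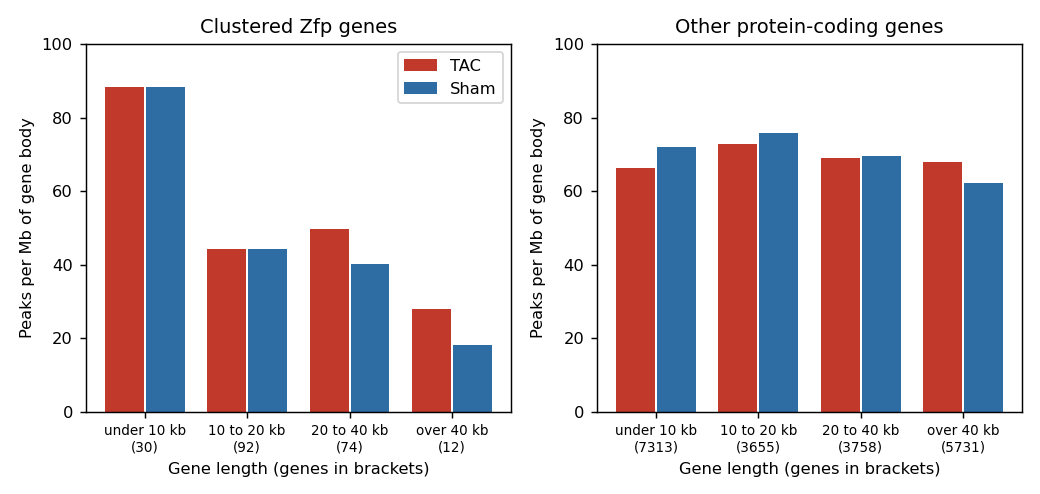
5mC peaks per Mb of gene body (vertical axis) by gene length class (horizontal axis, number of genes in brackets) for the clustered Zfp genes on the left and all other protein-coding genes on the right; red bars are TAC and blue bars Sham, 1 library each. Members of 10 kb or more lie at 18.1 to 49.6 peaks per Mb, against 62.3 to 75.7 in other genes, and members under 10 kb at 88.4.

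TAC had more peaks than Sham in the members, as in the genome at large. The TAC to Sham ratio was 1.17, and TAC peaks were 53.9% (48.8 to 59.0) of the 382 member peaks, against 51.6% in other genes. When the TAC list was shortened to the number of rows of the Sham list, the members' TAC share was 48.2% (42.8 to 53.7). Such a cut removes TAC peaks only and so can only lower this share. The share of other genes was not recomputed under the cut, so it cannot set members apart from them. The excess in the full lists rested largely on chromosome 17, described below, since without its members the share was 51.7% (46.3 to 57.1).

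Most members held few peaks. No peak of either library lay in 78 members (37.5%; 34.0 percent of all autosomal genes), 83 held peaks in both libraries (39.9%; 52.4 percent of all), 28 in TAC alone (13.5%; 7.43 percent) and 19 in Sham alone (9.13%; 6.11 percent). More TAC than Sham peaks were found in 54 members (26.0%; 25.9 percent of all genes) and more Sham than TAC peaks in 34 (16.3%; 22.0 percent). The members' share with more TAC peaks was thus that of genes at large. The share without a peak varied with gene length. Under 10 kb it was 36.7% of members, against 70.5% of other genes. From 10 to 20 kb it was 48.9%, against 28.8%, and from 20 to 40 kb 27.0%, against 15.6%. Over 40 kb it was 16.7%, against 2.83%. Under a rule of a 2-fold excess of at least 3 peaks, 1 member was past it towards TAC, Zfp993 (2.86 percent of all genes), and 0 towards Sham (1.39 percent).

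Single members with many peaks lay on several chromosomes. Zfp978, a gene annotated over 267.1 kb, held 10 TAC and 6 Sham peaks, and all 6 Sham peaks overlapped a TAC peak. Its 4 unshared TAC peaks were each 501 bp wide, the width the caller gives to a peak of minimum size. Zfp993, a gene annotated over 478.6 kb, held 8 TAC and 4 Sham peaks, and again all 4 Sham peaks were shared. Zfp982 on the same chromosome 4 held 4 TAC and 2 Sham peaks, of which 1 in each was shared. Several genes had 2 more TAC than Sham peaks, and the first of them in genome order after Zfp982 were Zfp628, with 3 TAC and 1 Sham peaks, and Zfp26, with 2 TAC and 0 Sham peaks.

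In the opposite direction the differences were no larger than 2 peaks. Zfp398 held 1 TAC and 3 Sham peaks, and Zfp248, Zfp111, Zfp59, Zfp84 and Zfp708 each held 0 TAC and 2 Sham peaks. The other members with many peaks were near balance: Zfp282 had 7 TAC and 8 Sham peaks, Zfp777 had 5 and 4, Zfp12 had 4 and 5, and Zfp316 and Zfp74 each had 3 and 4. Zfp934 and Zfp287 each held 4 TAC and 3 Sham peaks. Zfp865, Zfp180, Zfp286 and Zfp13 had as many peaks in both libraries together as Zfp982, which stands before them in genome order.

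Peaks were spread unevenly over the 50 clusters, as the bar plot of clusters shows. In 7 clusters no member held a peak, 24 had more TAC peaks, 15 had more Sham peaks and 4 had equal numbers. The 5 clusters with most peaks held 76 TAC and 71 Sham peaks, or 36.9% of the members' TAC peaks and 40.3% of their Sham peaks. The clusters lie in stretches of differing gene density, with a median of 19.5 coding genes in the surrounding 1 Mb and a range of 6 to 52.

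**Figure D2:**
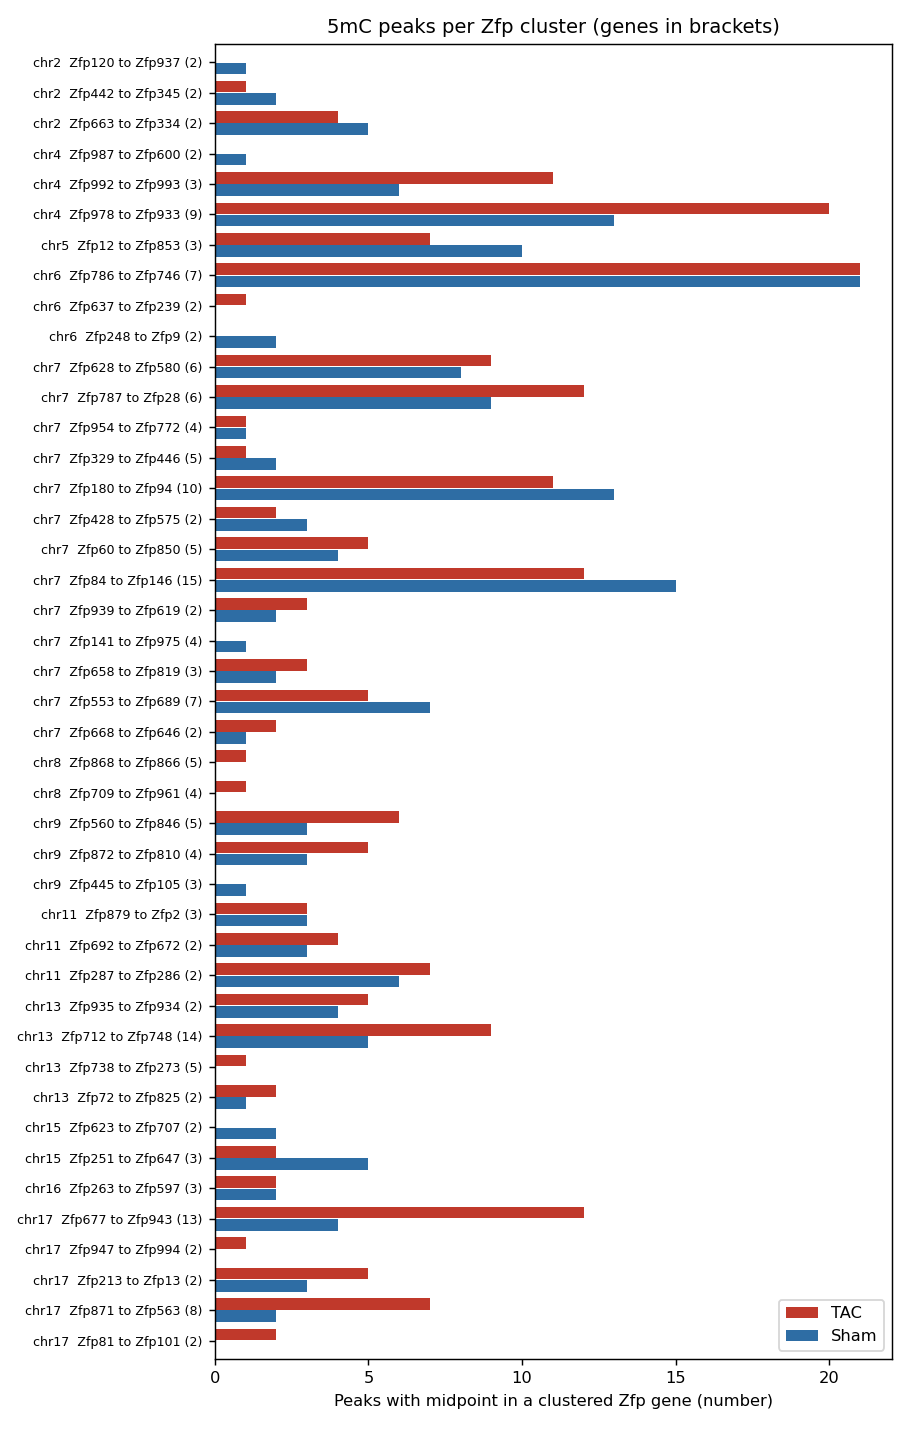
Number of 5mC peaks with midpoint in a member gene (horizontal axis) in each of the 43 clusters that held any, in genome order from top to bottom with the number of genes in brackets; red bars are TAC and blue bars Sham, 1 library each. The chromosome 6 cluster from Zfp786 to Zfp746 holds 21 in each library, the chromosome 4 cluster from Zfp978 to Zfp933 holds 20 in TAC and 13 in Sham, and each chromosome 17 cluster drawn has more in TAC.

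The richest cluster was that of 7 genes on chromosome 6 from Zfp786 to Zfp746 (chr6:47815536-48086986), with 21 TAC and 21 Sham peaks. Of these, 19 TAC and 17 Sham peaks were shared. The median width of all its peaks was 691 bp in TAC and 759 bp in Sham, and they stood early in the lists. Here a peak's place is its row number as a percentage of the rows of its own list; wider peaks tend to stand earlier (Spearman's rho between width and row was −0.68 in TAC and −0.69 in Sham), and neither labels nor headers state what the order means. The cluster's median place was 17.3% in TAC and 13.0% in Sham. Zfp777 held the widest peak of all members, 10987 bp in TAC (chr6:48018673-48029659) and 11942 bp in Sham (chr6:48018283-48030224), in the 3' part of its gene body. All 5 TAC and all 4 Sham peaks of Zfp777 were shared. Zfp746, which encodes PARIS, a repressor of the metabolic coactivator gene Ppargc1a, held 2 TAC and 2 Sham peaks, all shared.

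On chromosome 4, 2 of 3 clusters leaned to TAC, and the pair Zfp987 and Zfp600 held 0 TAC and 1 Sham peak. The 9 genes from Zfp978 to Zfp933 (chr4:147124882-147849126) held 20 TAC and 13 Sham peaks, of which 11 in each were shared. Zfp979 of this cluster, listed in RefSeq also as Ssm1b, a strain-specific modifier of DNA methylation in mouse embryos, held 1 TAC and 1 Sham peak, which overlapped. The 3 genes from Zfp992 to Zfp993 held 11 TAC and 6 Sham peaks, with all 6 Sham peaks shared. Over the 14 members of the chromosome, TAC peaks numbered 31 and Sham peaks 20, and 14 TAC but 3 Sham peaks were unshared. The TAC share was 60.8% (46.1 to 74.2), against 50.6% in the other genes of chromosome 4, a value within that interval.

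Chromosome 7 carries 14 clusters with 73 members, and here the libraries were near equal, with 66 TAC and 68 Sham peaks. The largest cluster, 15 genes from Zfp84 to Zfp146, held 12 TAC and 15 Sham peaks, 8 in each shared. The 10 genes from Zfp180 to Zfp94 held 11 TAC and 13 Sham peaks, 7 in each shared. In the 6 genes from Zfp787 to Zfp28 there were 12 TAC and 9 Sham peaks, and 8 in each were shared. The gene-dense cluster of 6 genes from Zfp628 to Zfp580 held 9 TAC and 8 Sham peaks, with median widths of 808 bp in TAC and 1080 bp in Sham. The 7 genes from Zfp553 to Zfp689 held 5 TAC and 7 Sham peaks, the 5 from Zfp60 to Zfp850 held 5 and 4, and the 5 from Zfp329 to Zfp446 held 1 and 2. The chromosome's members thus split into clusters leaning either way by no more than 3 peaks.

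A further 6 members are given for their described role in the heart or in silencing, and were picked after their values were seen. Zfp667, or Mip1, named for its induction by ischemic preconditioning of the rodent myocardium, held 2 TAC and 1 Sham peaks, none shared. A TAC peak lay within 1000 bp of each end of Zfp667, and no Sham peak lay within that distance of either. Zfp568, which silences a placental promoter of Igf2, held 0 peaks in TAC and 0 in Sham. Zfp809, which silences retroviruses through their primer binding site, also held 0 and 0. Zfp445, a factor that maintains imprints, held 0 TAC and 1 Sham peak. Zfp932, a repressor of endogenous retroviruses in mouse embryonic stem cells, and Zfp429, the liver regulator Rsl2, held 0 in both libraries.

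On chromosome 13, the 14 genes from Zfp712 to Zfp748 held 9 TAC and 5 Sham peaks, of which 2 in each were shared, and the 5 genes from Zfp738 to Zfp273 held 1 TAC and 0 Sham peaks. The 5 genes from Zfp560 to Zfp846 on chromosome 9 held 6 TAC and 3 Sham peaks, and the 5 from Zfp868 to Zfp866 on chromosome 8 held 1 and 0. The 3 genes from Zfp12 to Zfp853 on chromosome 5 held 7 TAC and 10 Sham peaks. Clusters on chromosome 15 also leaned to Sham, with 2 TAC and 7 Sham peaks over 5 members.

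Chromosome 17 was set apart after its values were seen. Its 32 members held 27 TAC and 9 Sham peaks, a TAC share of 75.0% (57.8 to 87.9), while the other genes of the chromosome held 2933 TAC and 2895 Sham peaks, a share of 50.3%. Of these member peaks, 19 TAC but 1 Sham were unshared. More TAC than Sham peaks lay in 13 of the 32 genes and more Sham than TAC peaks in 0. The 13 genes from Zfp677 to Zfp943 (chr17:21383707-21994366) held 12 TAC and 4 Sham peaks, and all 4 Sham peaks were shared. The 8 genes from Zfp871 to Zfp563 held 7 TAC and 2 Sham peaks, with 1 in each shared. The pair Zfp213 and Zfp13 held 5 TAC and 3 Sham peaks, with 3 in each shared.

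The excess on chromosome 17 was not confined to the gene bodies. Whole cluster spans held 50 TAC and 24 Sham peaks, of which 23 and 15 lay between members. The 200 kb on either side of each cluster held 142 TAC and 75 Sham peaks, with some flanks overlapping. Flanks were not cleared of members of neighbouring clusters, so some member peaks, such as those of Zfp942, were counted again as flank peaks. Over all 50 clusters the flanks held 1202 TAC and 1011 Sham peaks, a ratio of 1.19, beside 1.17 within the members. The chromosome 17 TAC peaks stood late in their list, at a median place of 70.1%, against 48.9% for the TAC peaks of all members. Those of the chromosome 13 members stood later still, at 74.3%. The chromosome 17 Sham peaks also stood late, at 55.7%, against 37.3% for the Sham peaks of all members. With peaks of at least 600 bp only, 7 TAC and 5 Sham peaks were left, a share of 58.3% (27.7 to 84.8), and with the shortened TAC list 65.4% (44.3 to 82.8). The map of the Zfp677 to Zfp943 cluster beside the chromosome 6 cluster shows the contrast.

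**Figure D3:**
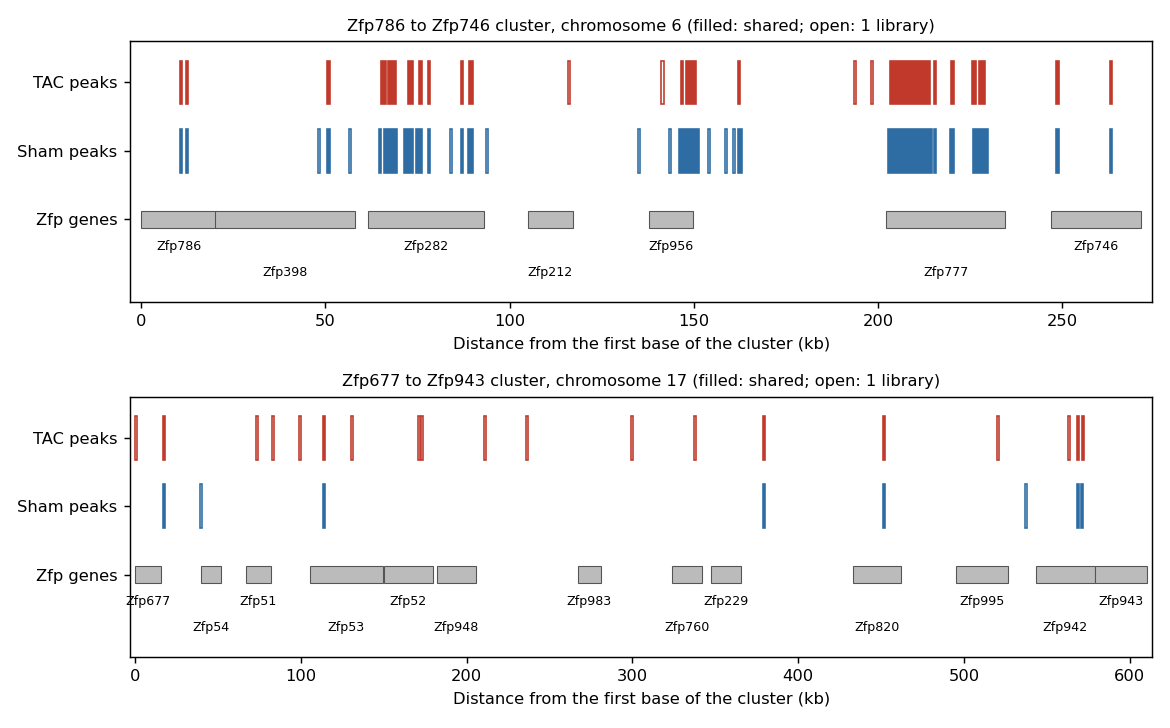
Peaks and Zfp genes along the chromosome 6 cluster from Zfp786 to Zfp746 (top) and the chromosome 17 cluster from Zfp677 to Zfp943 (bottom), with distance from the first base of the cluster in kb on the horizontal axis; in each panel the rows are TAC peaks (red), Sham peaks (blue) and gene bodies (grey), and filled peaks overlap a peak of the other library while open ones do not. On chromosome 6, Zfp282, Zfp956 and Zfp777 hold blocks of shared peaks, with some open peaks in Zfp282 and Zfp956. Most TAC peaks on chromosome 17 are open.

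About as many member peaks were shared between libraries as in other genes. Of 206 TAC peaks 123 overlapped a Sham peak by at least 1 bp, 59.7% (52.7 to 66.5), against 60.2% in other genes. Of 176 Sham peaks 119 overlapped a TAC peak, 67.6% (60.2 to 74.5), against 63.8%. The unshared peaks numbered 83 in TAC and 57 in Sham, a TAC share of 59.3% (50.7 to 67.5), against 54.0% in other genes. In 15 of the 43 clusters with a peak no peak was shared, and in 11 of the 37 clusters with a Sham peak every Sham peak was.

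Shared peaks stood earlier in the lists than unshared ones. The median place of shared peaks was 26.5% in TAC and 22.3% in Sham, against 31.96% and 33.8% for shared peaks over all genes. Unshared peaks had a median place of 72.0% in TAC and 61.9% in Sham, against 69.9% and 68.2% over all genes. The median width was 630 bp for shared peaks in TAC and in Sham, and 501 bp for unshared peaks in TAC and in Sham.

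**Figure D4:**
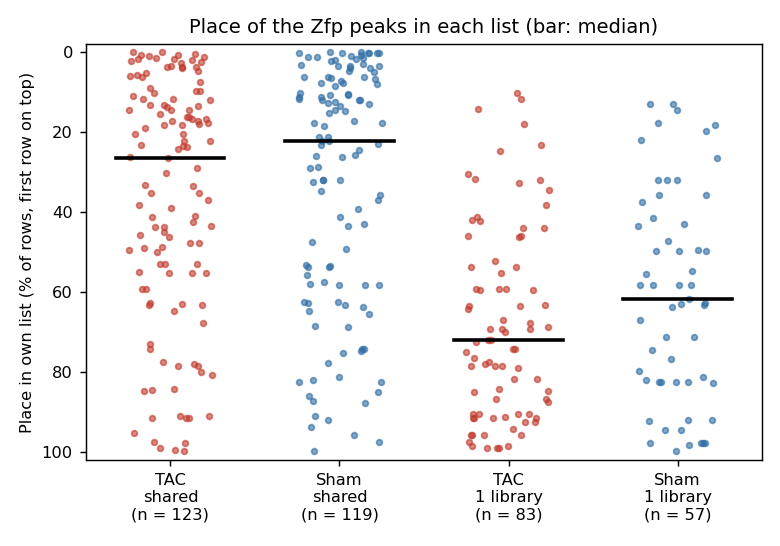
Place of each member peak in its own deposited list, as a percentage of rows with the first row on top (vertical axis), for shared peaks of TAC and Sham on the left and for peaks found in 1 library on the right; each point is a peak and each bar the median. The medians are 26.5% in TAC and 22.3% in Sham for shared peaks, and 72.0% in TAC and 61.9% in Sham for unshared peaks.

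Over all lengths, wide peaks made up a larger share in members than in other genes, and at the widest loci the Sham peaks were the wider ones. Peaks of at least 1 kb made up 28 of the TAC peaks (13.6%) and 32 of the Sham peaks (18.2%), against 8.08% and 10.04% in other genes. The share varied with gene length: in genes of 10 to 20 kb it was 12.3% in TAC and 17.5% in Sham, against 10.8% and 13.7% in other genes, and in genes of 20 to 40 kb 15.2% and 18.8%, against 10.1% and 12.3%. In members over 40 kb it was 2.94% in TAC, or 1 of 34 peaks, and 13.6% in Sham, against 7.504% and 9.20%. Overlapping peaks of the libraries joined into 118 loci, of which 34 were wider in TAC, 50 wider in Sham and 34 equal. Of the 35 loci that reached 1 kb in either library, 9 were wider in TAC and 26 in Sham (74.3%), against 56.0% wider in Sham among such loci of other genes. These 35 loci summed to 60.4 kb in TAC and 78.9 kb in Sham, a ratio of 0.766, against 0.917 in other genes. Every one of them in the chromosome 6 cluster from Zfp786 to Zfp746 was wider in Sham. The comparison was not repeated without that cluster.

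The largest of these loci lay in the chromosome 6 cluster. After the Zfp777 locus, the locus at the 3' end of Zfp956 covered 3239 bp in 2 TAC peaks and 5394 bp in 1 Sham peak. Zfp282, or HUB1, whose human counterpart was described as a repressor of a retroviral promoter, had a locus of 3487 bp in TAC and 4338 bp in Sham. A second Zfp777 locus covered 2692 bp in TAC and 4176 bp in Sham. On other chromosomes, the Zfp316 locus covered 2528 bp in TAC and 3737 bp in Sham, and the Zfp628 locus 1625 bp and 3038 bp. Zfp668 had 501 bp in TAC and 2447 bp in Sham. Near equal widths were seen at Zfp872, with 3593 bp in TAC (chr9:22189412-22193004) and 3805 bp in Sham (chr9:22189062-22192866), and at Zfp978, with 2079 bp and 2101 bp. Zfp865 had 2919 bp in TAC and 2732 bp in Sham, so not all wide loci leaned to Sham. At 4 of the 35 loci the TAC side was split into more peaks than the Sham side, and at 0 the reverse. Of 7631 such loci of other genes, 382 were split into more peaks in TAC and 203 in Sham.

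**Figure D5:**
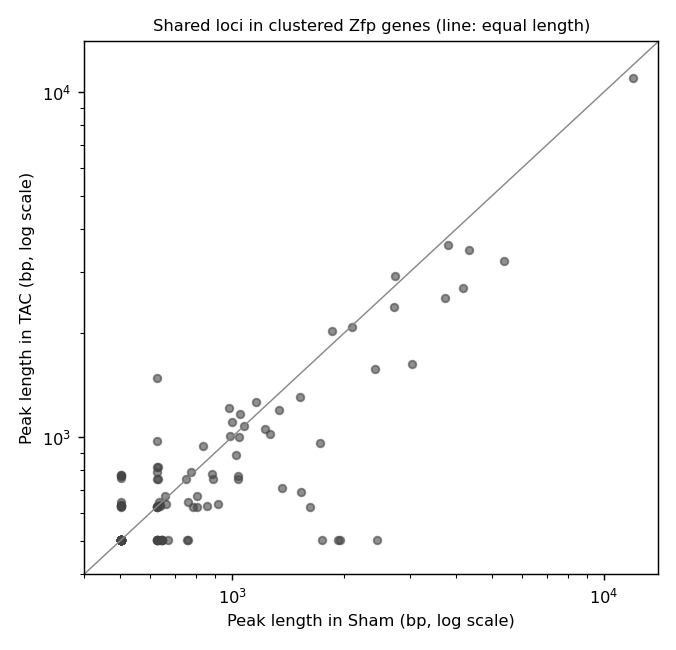
Summed peak length at each of the 118 shared loci in clustered Zfp genes, with TAC on the vertical and Sham on the horizontal axis, both in bp on log scales; the line marks equal length. Of the 35 loci of at least 1 kb in either library 26 lie below the line, wider in Sham, and the locus in the top right corner is that of Zfp777 at 10987 bp in TAC and 11942 bp in Sham.

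Gene ends were covered about equally in the libraries. An annotated gene end with 1000 bp before and after it was overlapped by a peak in 42 members in TAC, 20.2% (15.0 to 26.3), and 41 in Sham, 19.7% (14.5 to 25.8), against 25.4% and 24.5% of other genes. Both libraries covered an end of 27 members (13.0%; 16.5 percent of all genes), TAC alone of 15 (7.21%; 8.86 percent) and Sham alone of 14 (6.73%; 7.98 percent). Of the 180 members with a known strand, the 5' end was covered in 17 in TAC (9.44%) and 15 in Sham (8.33%). In other genes of known strand these shares were 13.4% and 11.97%. The 3' end was covered in 19 members in TAC (10.6%) and 21 in Sham (11.7%), against 14.6% and 15.1% of other genes. Over all lengths, each end was thus covered in a smaller share of members than of other genes, and the 3' share was the higher one in both sets. Under 10 kb, an end was covered in 30% of members in each library, against 23.4% of other genes in TAC and 22.2% in Sham. In each longer class the members' share was the lower one. In members of 20 to 40 kb the 5' end was covered in 9 in TAC and 8 in Sham, and the 3' end in 4 and 6. In both shorter classes the 3' end was ahead. Peaks with midpoint inside a member and near its end were 20 in TAC (9.71%, 6.03 to 14.6) and 22 in Sham (12.5%, 8.00 to 18.3), against 4.198% and 4.75% in other genes. By length class the direction differed. In genes under 10 kb 27.8% of the members' TAC peaks and 33.3% of their Sham peaks lay near an end, against 45.5% and 45.8% in other genes. In genes of 10 to 20 kb the members' values were 17.5% in TAC and 15.8% in Sham, against 15.4% and 15.5%. In genes of 20 to 40 kb they were 5.05% in TAC and 8.75% in Sham, against 7.13% and 7.55%. In that last class the libraries thus differed in direction.

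The 15 genes with an end covered in TAC alone were Zfp605, Zfp212, Zfp444, Zfp667, Zfp111, Zfp108, Zfp626, Zfp82, Zfp2, Zfp960, Zfp677, Zfp51, Zfp213, Zfp13 and Zfp811. The 14 genes with an end covered in Sham alone were Zfp663, Zfp316, Zfp282, Zfp777, Zfp329, Zfp109, Zfp93, Zfp866, Zfp961, Zfp872, Zfp708, Zfp65, Zfp707 and Zfp54. An end covered in 1 library alone does not always mean a peak of that library alone. In Zfp777, Zfp316 and Zfp872 the Sham peak at the end overlapped a TAC peak that began just beyond the 1000 bp window. In Zfp213 it was the overlapping Sham peak that began just beyond it. Zfp111 had an end covered in TAC alone although both peaks with midpoint in its body were Sham peaks. Along the gene, the middle 20% of the gene length held the most peaks in both libraries, by a small margin in Sham. For this, a peak in overlapping genes was counted once for each gene. Of 180 TAC peaks so counted in members with a known strand, 48 (26.7%) lay in this middle stretch and 30 (16.7%) in the first 20%. In other genes the values were 19.7% and 19.3%. Of 150 such Sham peaks, 36 (24%) lay in this middle stretch and 22 (14.7%) in the first 20%, against 19.8% and 17.98%. The last 20% held 34 Sham peaks (22.7%), close to the middle stretch, against 22.0% in other genes. In TAC it held 33 peaks (18.3%), against 20.3% in other genes.

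Genes for silencing co-factors of KRAB zinc finger proteins and for other silencing or imprinting factors were covered as follows. The list of 19 autosomal genes, 1 of them the member Zfp445, held 29 TAC and 32 Sham peaks. Trim28, the scaffold that KRAB domains bind, held 0 in TAC and 0 in Sham, as did the HP1 genes Cbx1 and Cbx3 and the imprinting factor Zfp57. The other HP1 gene, Cbx5, held 1 TAC and 0 Sham peaks. Setdb1 held 0 TAC and 1 Sham peak. The maintenance methyltransferase gene Dnmt1 held 3 TAC and 6 Sham peaks, with an end covered in TAC alone, and the de novo methyltransferase gene Dnmt3a held 5 and 7. Pphln1, of the HUSH silencing complex, held 6 in TAC and 6 in Sham. The cell type marker lists held 58 TAC and 34 Sham peaks for cardiomyocytes, 13 and 9 for fibroblasts, and 45 and 47 for endothelium. Smooth muscle and pericyte genes held 25 and 24, and immune genes 29 and 18. TAC peaks were 63.0%, 59.1%, 48.9%, 51.0% and 61.7% of these lists' peaks in that order, against 51.6% over all autosomal genes. In the cardiomyocyte list Ryr2 held 31 TAC and 20 Sham peaks and Ttn 9 and 5, while Pln and Nppa held 0 in both. The part of a change in cell mix in the members' values was not tested.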

How the data were processed

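MeDIP-seq was done on cardiomyocyte DNA from 1 TAC, 1 Sham and 1 Input library. The authors used BWA 0.7.4-r385, Picard and HOMER 4.5 on mm10, per the submitters' processing notes. Per the file headers, peaks were called separately per library against input, at 500 bp per peak, 1000 bp between peaks and at least 4-fold over input. The deposited lists give each peak's position; the score column the authors deposited is 1 in every row and was not used. The labels and headers do not state how reads were placed among paralogs.

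Genes, strands (from the promoter table) and promoters came from RefSeq GRCm38.p6. A peak belonged to a gene by its midpoint, and a peak in overlapping members was counted once in totals. The exception was the place along the gene, where it was counted for each gene. Sharing meant an overlap of 1 bp. Counts were made with Python 3.11.15, pandas 2.3.3 and scipy 1.17.1, and the counting was tested on simulated data. Alternatives were other gaps, gene-end windows, overlaps, widths and list lengths. Members, lists and settings were chosen with earlier results of these data known. Named genes were the 10 with most peaks, the 5 with the largest excess in each direction, the 5 with the widest peak, the first and last gene of clusters of 5 or more genes and of the 5 richest clusters, genes there with an end covered in 1 library, and Zfp777, Zfp872 and the co-factors; others were named after their values were seen.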

Additional observations from a re-analysis of the deposited data

How the results depend on the processing

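Of 62 recomputed shares, 43 stayed within the interval of the reported value. With the first 50% of each list, 70.5% of TAC peaks were shared, and 11.1% of members had an end covered in TAC and 11.1% in Sham. With peaks of at least 600 bp these were 70.5%, 7.69% and 8.65%. With the TAC list shortened to the length of the Sham list, the TAC share of peaks was 48.2% and 59.7% of Sham peaks were shared. Requiring 50% of both peaks to overlap left 51.0% of TAC and 59.7% of Sham peaks shared. A window of 500 bp at gene ends gave 10.6% of members covered in TAC and 11.5% in Sham, and 4.85% of TAC and 7.95% of Sham peaks near an end; a window of 2000 bp gave 36.1%, 33.2%, 19.9% and 26.7%. With 5 kb added to gene bodies, 14.7% of TAC peaks lay near an end. Cluster gaps of 50 or 200 kb and leaving out overlapping genes moved no share outside its interval. The chromosome 17 settings were chosen after seeing the data. No paired analysis was possible because each group has 1 library and no result comes from a test. With 1 library per group, the spread between animals is unknown, and the deeper TAC library limits what a peak found in 1 library shows.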
